A study of Homo sapiens with 4 samples.

Results

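Death receptors are cell-surface receptors of the tumour necrosis factor (TNF) receptor superfamily that carry a death domain in their cytoplasmic part. When a ligand binds, the death domain gathers adaptor proteins such as FADD and TRADD, and the complex can activate caspase-8 and apoptosis or signal through NFκB. TNFRSF25 (also named DR3) belongs to this family together with FAS, the TNF receptor TNFRSF1A, the TRAIL receptors TNFRSF10A and TNFRSF10B, and TNFRSF21 (DR6). TNFRSF10C and TNFRSF10D also bind TRAIL but have no working death domain and are known as decoy receptors. TNFSF12 (TWEAK) is a ligand of the same superfamily, and TNFRSF12A (Fn14) is its receptor, which has no death domain. These 10 genes were taken by name, as every probe that a RefSeq transcript accession pairs with one of them, which gave 14 probes of the 25422 that were paired with 1 of 19483 genes. The study singled out TNFRSF25 from these same arrays, so the size of its change here is a description and not independent evidence. Apart from the arrays, the study reported higher TNFRSF25 RNA with tetracycline by RT-PCR.

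RNA was measured in TR9-MeTA14 and TR15-MeTA5, cell lines made from the human prostate cancer line LNCaP. Cells of both lines stably carry a Tet repressor and a construct in which tetracycline induces NFκB (AD)-MBD, a fusion of the NFκB activation domain with a methyl-CpG-binding domain that activates genes with methylated promoters (the MeTA method). Each line was cultured without tetracycline (-Tet) or with it for 4 days (+Tet), with 1 one-colour Agilent array per condition, 4 arrays in all. The cells without tetracycline carry the same constructs, and no array of tetracycline-treated cells without NFκB (AD)-MBD was used here, so an effect of the fusion protein and an effect of tetracycline itself cannot be told apart. The processed signal is the brightness of a spot after background subtraction, as deposited. Before arrays were compared, each was divided by the 75th percentile of its probes, which was 618 and 777 in TR9-MeTA14 and 367 and 542 in TR15-MeTA5, without and with tetracycline, respectively. Replicate spots on an array gave a standard deviation (SD) of 0.087 for a log2 ratio, which covers error within an array only. A change within a cell line has no replicate check and no p-value. The test over both lines (limma) takes the lines as replicates and has 1 residual degree of freedom. Its standard errors also draw on a prior variance estimated over all tested probes, so they are not the spread between the lines alone. The prostate luminal markers KLK3 and TMPRSS2 were well above background on all 4 arrays. With tetracycline they were 3.85-fold and 8.16-fold lower in TR9-MeTA14 and 1.62-fold and 1.61-fold lower in TR15-MeTA5, respectively. Of 10 such markers listed, 7 were at least 2-fold lower in TR9-MeTA14, beside 15.1% of all genes compared. In TR15-MeTA5 0 of 10 were, beside 2.22%. KRT8, also on the list, was 1.18-fold higher in TR9-MeTA14. Of 5 basal epithelial markers, KRT5, KRT14 and TP63 were not well above background on any array, whereas KRT15 was on 4, with signals between 97.9 and 141, and CD44 on 3.

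The promoters differ in how many CG dinucleotides, the sites of DNA methylation, they hold. RefSeq promoter windows, from 250 bases before to 50 after a start site, are given for TNFRSF25, TNFRSF21, FAS and TNFRSF1A. Windows on the chromosome of TNFRSF10A, TNFRSF10B, TNFRSF10C and TNFRSF10D were left out, and none was found for TNFSF12 and TNFRSF12A. Here CG was counted, which reads the same on both strands and is present in 96.0% of 35116 windows. TNFRSF25 had 31 CG in its window, a number that 20.7% of all windows reach. TNFRSF21 had 23, reached by 35.8%. FAS has 3 windows, with between 14 and 22. TNFRSF1A had 4, which 75.5% of windows reach. The 250 bases before the start site are shown for TNFRSF25, whose signal changed most, for TNFRSF21, and for the CG-poor promoter of TNFRSF1A, 5′ to 3′ on the minus strand of GRCh38.p14, with each CG in capitals. They lie at chr1:6466174-6466423, chr6:47309906-47310155 and chr12:6342077-6342326, respectively. Methylation was not measured on these arrays. By bisulfite sequencing, which reads methylation, the study found the TNFRSF25 promoter hypermethylated in both lines, with and without tetracycline. It reported the same for the nontumorigenic prostate line RWPE-1.
TNFRSF25: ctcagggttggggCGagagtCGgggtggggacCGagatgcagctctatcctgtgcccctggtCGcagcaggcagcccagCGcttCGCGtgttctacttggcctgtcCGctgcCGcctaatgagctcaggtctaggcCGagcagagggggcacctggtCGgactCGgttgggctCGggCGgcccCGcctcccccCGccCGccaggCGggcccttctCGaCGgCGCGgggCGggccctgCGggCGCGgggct
TNFRSF21: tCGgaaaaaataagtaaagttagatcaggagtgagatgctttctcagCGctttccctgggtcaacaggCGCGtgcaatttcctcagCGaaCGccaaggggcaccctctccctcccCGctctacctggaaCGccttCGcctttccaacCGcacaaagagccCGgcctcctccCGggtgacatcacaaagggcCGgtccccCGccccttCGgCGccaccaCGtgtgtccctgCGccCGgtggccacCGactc
TNFRSF1A: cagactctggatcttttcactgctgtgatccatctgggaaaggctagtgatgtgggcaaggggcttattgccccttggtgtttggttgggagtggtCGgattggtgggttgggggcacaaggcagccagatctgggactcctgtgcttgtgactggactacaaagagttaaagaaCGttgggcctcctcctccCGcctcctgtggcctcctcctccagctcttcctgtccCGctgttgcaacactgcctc

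TNFRSF25 rose in both lines. Its brighter probe, A_23_P126844, gave processed signals of 306 in TR9-MeTA14 -Tet, 6767 in TR9-MeTA14 +Tet, 167 in TR15-MeTA5 -Tet and 3033 in TR15-MeTA5 +Tet. Both +Tet arrays lay far above both -Tet arrays. After scaling, the increase was 17.6-fold in TR9-MeTA14 and 12.3-fold in TR15-MeTA5. On the log2 scale it was 4.14 and 3.62, differences far larger than the SD of 0.087 between spots. A larger value was found for 338 of 15089 genes in TR9-MeTA14 and 240 of 14344 in TR15-MeTA5, of which 1559 and 1435 entered with a bound, so that these ranks are the highest TNFRSF25 could have. Across both lines, limma gave a log2 change of 3.88 (standard error 0.28, adjusted p = 0.0174), higher in 2 of 2 lines. In order of scaled signal, the arrays ran from TR15-MeTA5 -Tet (253) and TR9-MeTA14 -Tet (275) to TR15-MeTA5 +Tet (3109) and TR9-MeTA14 +Tet (4842). The -Tet arrays differed by 0.12 on the log2 scale, little more than the spot SD. The RNA came from whole cultures, so more cells with TNFRSF25 RNA and more RNA per cell cannot be told apart.

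The brighter and dimmer probes of TNFRSF25 are paired with different transcripts, NM_148965 and NM_001039664. The dimmer, A_33_P3234530, had signals of 4.74 and 6.76 on the -Tet arrays of TR9-MeTA14 and TR15-MeTA5, not well above background, and of 307 and 61.9 on the +Tet arrays, well above background. Its increase was at least 15.8-fold in TR9-MeTA14 and at least 2.71-fold in TR15-MeTA5, where the lowest signal well above background stands in for the -Tet level. Both probes were thus higher with tetracycline in both lines. On the +Tet arrays, the dimmer probe was 3.47-fold lower in TR15-MeTA5 than in TR9-MeTA14, and the brighter 1.56-fold lower. Since the dimmer probe was measured on the +Tet arrays alone, no p-value is given for it.

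**Figure D1:**
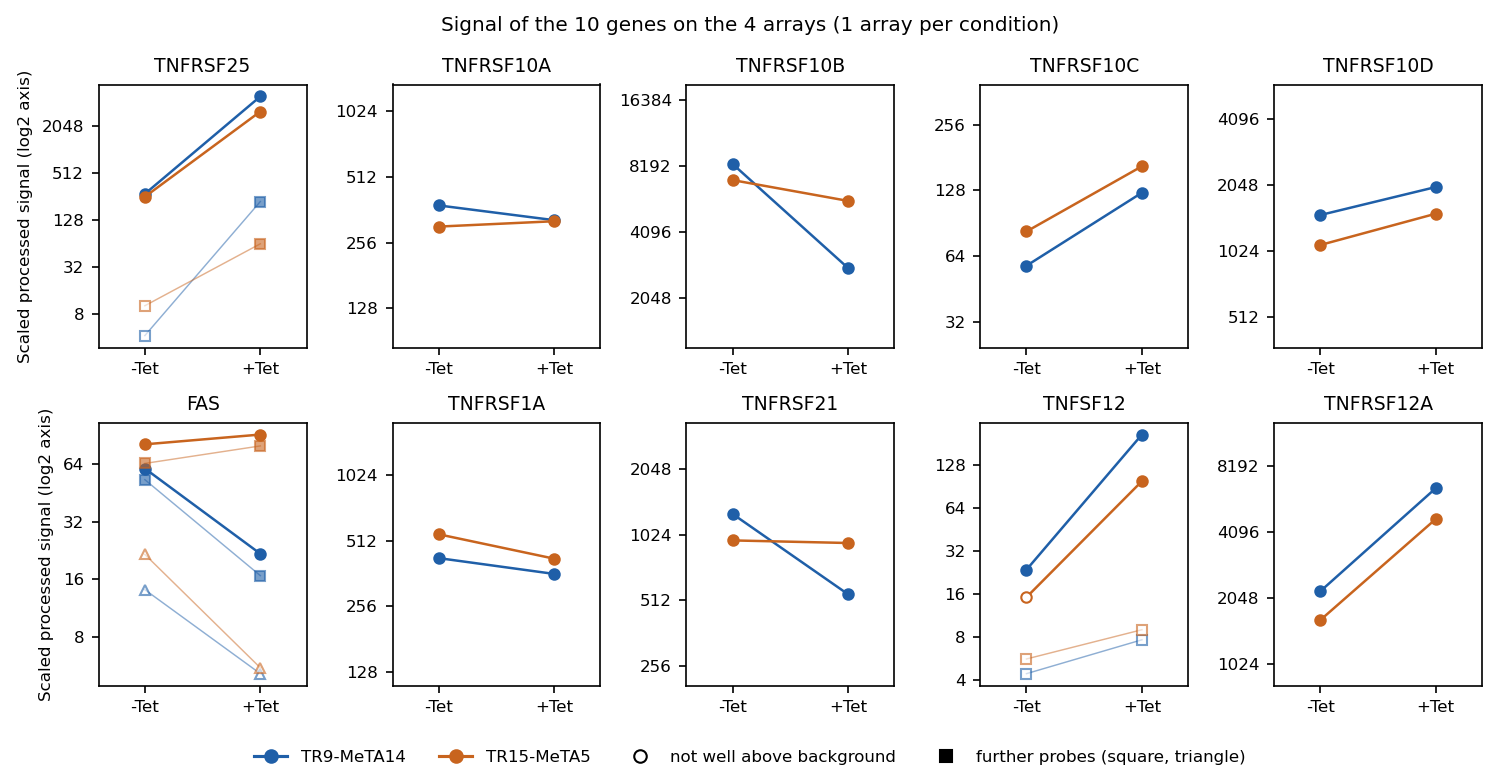
Scaled processed signal (log2 axis) of each gene without and with tetracycline, with blue for TR9-MeTA14 and orange for TR15-MeTA5, 1 array per point. Circles are the probe that stands for the gene, squares and triangles its further probes, and open symbols are signals not well above background. TNFRSF25, TNFSF12, TNFRSF12A and TNFRSF10C slope upwards in both lines, whereas the steep downward slopes of TNFRSF10B, FAS and TNFRSF21 belong to TR9-MeTA14, at log2 changes of -1.58, -1.48 and -1.22.

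No other death receptor was at least 2-fold higher with tetracycline in either line. Of the 6 genes with a death domain, TNFRSF25 was thus the 1 with a 2-fold increase, and 3 were at least 2-fold lower in TR9-MeTA14, namely TNFRSF10B, FAS and TNFRSF21. None of the 6 was at least 2-fold lower in TR15-MeTA5. Over all genes compared, 15.1% were at least 2-fold lower in TR9-MeTA14 and 2.22% in TR15-MeTA5, and 17.0% and 9.92% were at least 2-fold higher, so that 1 of 6 higher in TR9-MeTA14 is near the share of all genes. The median log2 change of the 6 genes was -0.73 in TR9-MeTA14 and 0.02 in TR15-MeTA5, beside -0.06 and -0.16 for all genes.

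TNFRSF10B encodes DR5, a TRAIL receptor that signals for death. Its processed signal was 9323 in TR9-MeTA14 -Tet, 3914 in TR9-MeTA14 +Tet, 4669 in TR15-MeTA5 -Tet and 5545 in TR15-MeTA5 +Tet. After scaling it was lower with tetracycline in TR9-MeTA14, with a log2 change of -1.58, and 1.25-fold lower in TR15-MeTA5, and limma gave a log2 change of -0.95 (standard error 0.40, adjusted p = 0.280). The smaller value in TR15-MeTA5 depended on the scaling and turned to 0.12 on the log2 scale with spike-in scaling, in which control RNA of known amount sets the level of each array. TNFRSF10A encodes DR4, the other TRAIL receptor with a death domain. Its signals were 421 and 453 in TR9-MeTA14 and 199.8 and 313 in TR15-MeTA5, without and with tetracycline. These amounted to a level 1.17-fold lower in TR9-MeTA14 and 1.06-fold higher in TR15-MeTA5, and limma gave an adjusted p of 0.897.

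FAS, the receptor of FAS ligand, was read by 3 probes. The brightest, A_23_P63896, has 10 spots on each array, and its mean signals were 67.2 in TR9-MeTA14 -Tet, 30.4 in TR9-MeTA14 +Tet, 53.4 in TR15-MeTA5 -Tet and 88.8 in TR15-MeTA5 +Tet. In TR9-MeTA14, the spots lay between 59.6 and 77.1 without tetracycline (10 spots) and between 26.2 and 39.6 with it (7 spots, after 3 outliers were left out), and did not overlap. In TR15-MeTA5, they lay between 45.7 and 59.9 (8 spots, after outliers of 39.6 and 82.5 were left out) and between 74.5 and 103 (10 spots). After scaling, FAS was 2.78-fold lower with tetracycline in TR9-MeTA14, a log2 change of -1.48 (standard error over spots 0.087), and 1.12-fold higher in TR15-MeTA5, 0.17 (0.064). The single-spot probe A_33_P3381127 gave the same directions, 3.17-fold lower and 1.23-fold higher. The third, A_33_P3332112, was not well above background on any array. FAS signals lie near background, and with normexp background correction and quantile normalization the log2 changes were -0.58 and -0.003, so that its 2-fold decrease in TR9-MeTA14 was lost. Over both lines, limma gave -0.65 (standard error 0.51, adjusted p = 0.499).

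TNFRSF1A, the main receptor of TNF itself, was also read by 10 spots per array. Its mean signals were 473 and 503 in TR9-MeTA14 and 361 and 413 in TR15-MeTA5, without and with tetracycline. The median spot was higher with tetracycline in both lines before scaling, at 504 against 480.1 and 416 against 357. After scaling, TNFRSF1A was lower with tetracycline by 0.24 on the log2 scale in TR9-MeTA14 (standard error over spots 0.026) and by 0.37 in TR15-MeTA5 (0.032), or 1.18-fold and 1.29-fold. The median probe measured above background on every array changed by -0.15 and -0.19, so that relative to it TNFRSF1A was lower by less. With spike-in scaling that median became -0.01 and 0.25, and the TNFRSF1A change in TR15-MeTA5 was 0.06. The limma adjusted p was 0.526. TNFRSF21, which is known from neurons and lymphocytes, had signals of 1414 and 762 in TR9-MeTA14 and of 635 and 914 in TR15-MeTA5. It was 2.33-fold lower with tetracycline in TR9-MeTA14 and 1.03-fold lower in TR15-MeTA5, where the log2 change turned to 0.39 with spike-in scaling (limma adjusted p = 0.397).

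**Figure D2:**
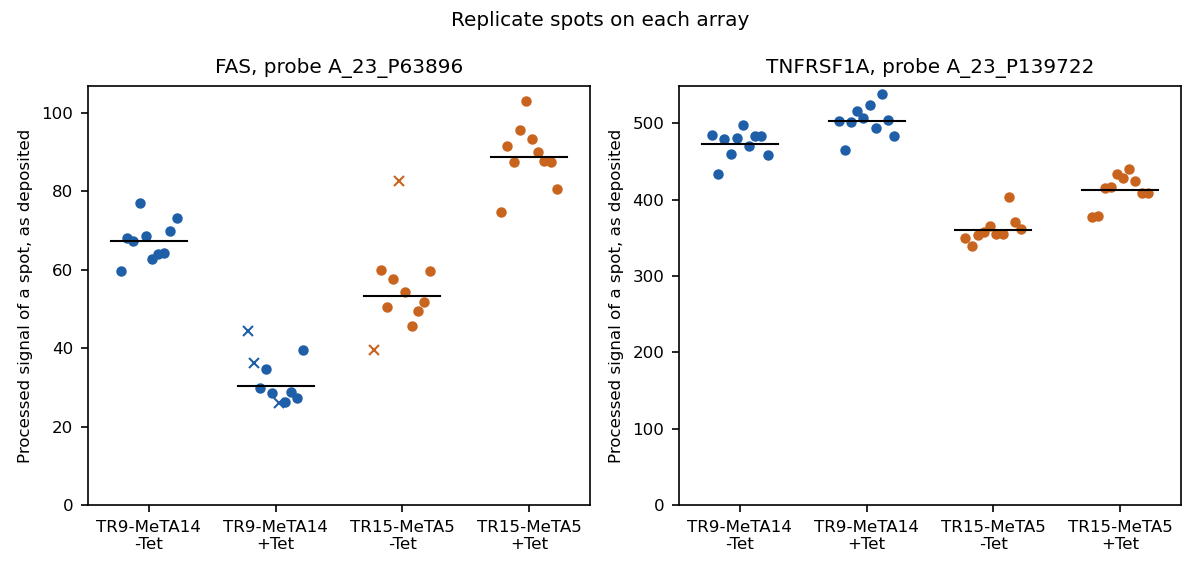
Processed signal of each replicate spot of the FAS and TNFRSF1A probes, as deposited and before scaling, on the 4 arrays. Crosses are outlier spots that were left out, and lines are the mean on the log scale. Among the spots used, FAS spots with tetracycline lie below those without it in TR9-MeTA14 and above them in TR15-MeTA5. An outlier FAS spot without tetracycline in TR15-MeTA5, at 82.5, lies within the range of those with it. TNFRSF1A spots shift little in either line.

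Both decoy receptors had higher levels with tetracycline in both lines, by modest amounts. TNFRSF10C (DcR1) had signals of 64.3 in TR9-MeTA14 -Tet, 175 in TR9-MeTA14 +Tet, 54.8 in TR15-MeTA5 -Tet and 161 in TR15-MeTA5 +Tet. Both +Tet signals exceeded both -Tet signals, and how many of all genes share this separation was not counted. The increase was 2.16-fold and 1.99-fold, so TR15-MeTA5 was just short of 2-fold, and limma gave a log2 change of 1.05 (standard error 0.28, adjusted p = 0.198). Its place against 2-fold depended on the processing. In TR9-MeTA14 its log2 change was 0.95 with quantile normalization and 0.55 with normexp followed by quantile normalization, below 2-fold, whereas in TR15-MeTA5 it was 1.42 with spike-in scaling and also just past 2-fold with median scaling. TNFRSF10D (DcR2) had signals of 1662 and 2808 in TR9-MeTA14 and of 719 and 1480.2 in TR15-MeTA5. It was 1.34-fold and 1.39-fold higher (limma adjusted p = 0.360). The 4 TRAIL receptor genes follow each other among protein-coding genes in the RefSeq order, as TNFRSF10B, TNFRSF10C, TNFRSF10D and TNFRSF10A. In TR9-MeTA14 their log2 changes in that order were -1.58, 1.11, 0.43 and -0.22, so the values of neighbouring genes ran in both directions.

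TWEAK and its receptor were both higher with tetracycline in both lines. TNFSF12, the ligand, was read by A_24_P245298, with signals of 26.2 in TR9-MeTA14 -Tet, 289.5 in TR9-MeTA14 +Tet, 10.0 in TR15-MeTA5 -Tet and 95.6 in TR15-MeTA5 +Tet. All but TR15-MeTA5 -Tet were well above background. The increase was 8.78-fold in TR9-MeTA14 and at least 4.19-fold in TR15-MeTA5. Limma, in which the background-level signal entered as measured, gave a log2 change of 2.91 (standard error 0.33, adjusted p = 0.0383), higher in 2 of 2 lines. Without the cell line as a block the adjusted p was 0.0727, and with normexp followed by quantile normalization the log2 change in TR9-MeTA14 was 1.63 in place of 3.13. A further probe, A_33_P3406623, was not well above background on any array. TNFRSF12A, the receptor, is a much studied gene of wound repair and tumour cells. Its signals were 2438 and 9089.6 in TR9-MeTA14 and 1068 and 4584 in TR15-MeTA5. The increase was 2.97-fold and 2.90-fold, and the changes in the lines differed by 0.03 on the log2 scale, less than the spot SD. The limma log2 change of 1.55 (standard error 0.25, adjusted p = 0.0725) did not pass the correction, although it did without a filter on dim probes (adjusted p = 0.0270) and with spike-in scaling (0.0379).

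Counted over the 10 genes, 4 were at least 2-fold higher in TR9-MeTA14, where 17.0% of all genes compared were, and 3 in TR15-MeTA5, where 9.92% were. TNFRSF25, TNFSF12 and TNFRSF12A were higher in both lines, 3 of 10 beside 8.33% of 13980 genes, and TNFRSF10C joined them with median or spike-in scaling. At least 2-fold lower in both lines were 0 of 10, beside 0.837%. FAS and TNFRSF10A, 2 of 10, had changes of opposite sign in the lines, beside 24.1% of 13980 genes. This count rests on values near 0 and was 5 with spike-in scaling, where TNFRSF10B, TNFRSF1A and TNFRSF21 joined. It was 1 with normexp followed by quantile normalization, where FAS left it. The share of all genes under either alternative was not counted, so 24.1% is no measure for these counts. With spike-in scaling, the median probe measured above background on every array went from -0.19 to 0.25 in TR15-MeTA5. In TR9-MeTA14 that median went from -0.15 to -0.01, so the medians of the lines then differed in sign. Limma tested 12 of the 14 probes, the dimmer TNFRSF25 probe being among them through its +Tet arrays alone, and called 2 of them higher (adjusted p under 0.05), 1 each of TNFRSF25 and TNFSF12, beside 2.52% of 22819 probes. None was lower, beside 0.00876%. At an unadjusted p below 0.05, 1 probe each of TNFRSF25, TNFRSF10C, TNFSF12 and TNFRSF12A was higher, beside 2618 of 22819 probes. The dimmer TNFRSF25 probe is left out here, since it passed the filter through its +Tet arrays alone. The 2618 probes were not limited in this way. None of the 12 was lower at that level, beside 1787 of 22819. In either direction 19.3% of all probes reached it. Since the genes were chosen with these results known, no test was made of the group.

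**Figure D3:**
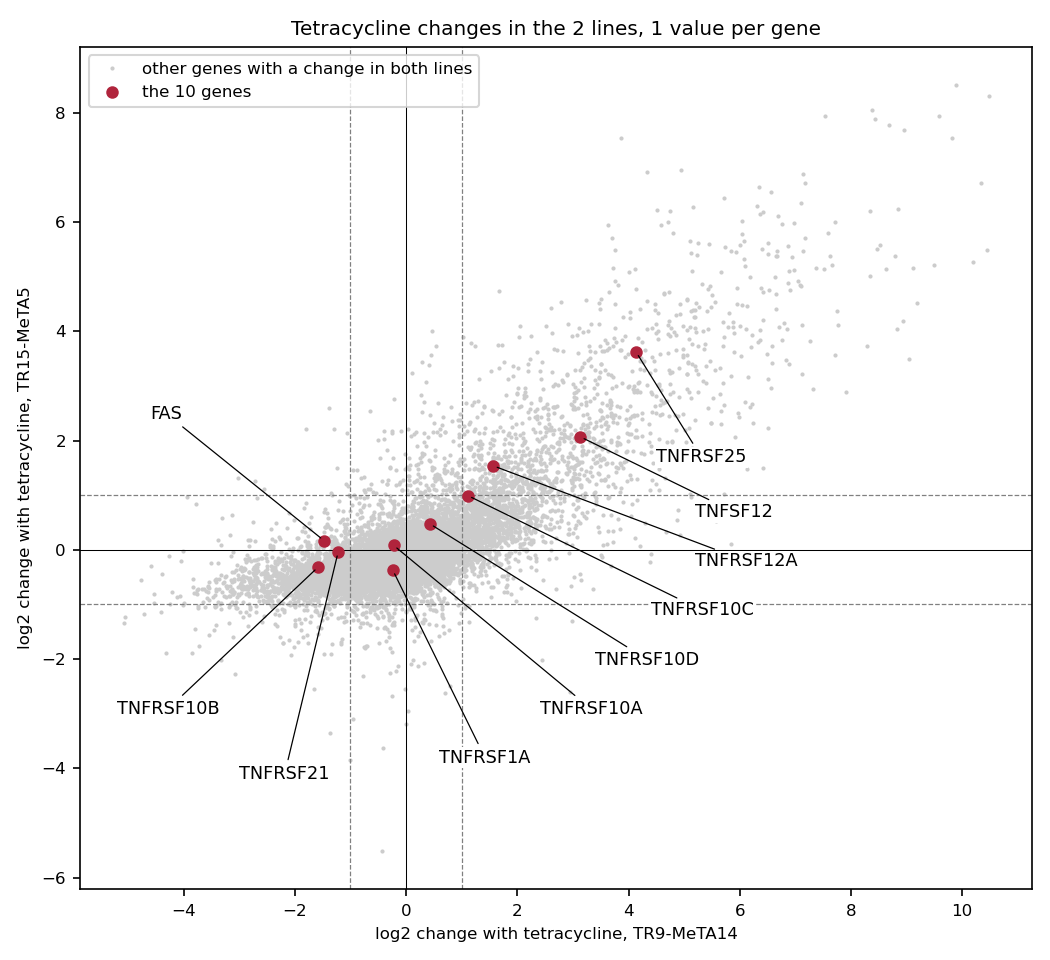
Log2 change with tetracycline in TR9-MeTA14 (horizontal) and TR15-MeTA5 (vertical), with grey points for all genes that had a change in both lines, bounds included, and red points for the 10 genes. Dashed lines mark 2-fold. TNFRSF25, TNFSF12 and TNFRSF12A lie beyond 2-fold in both lines, and TNFRSF10B, FAS and TNFRSF21 lie beyond it on the lower side in TR9-MeTA14 only.

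The levels of the cell lines were also set against each other. On the -Tet arrays, 0 of the 10 were at least 2-fold higher in TR15-MeTA5 than in TR9-MeTA14, beside 8.21% of all genes, and 0 were at least 2-fold lower, beside 5.22%. Of the 9 genes measured on both -Tet arrays, TNFRSF10C differed most, 1.43-fold higher in TR15-MeTA5, while TNFSF12 has a bound there. On the +Tet arrays, FAS was 4.19-fold higher in TR15-MeTA5 than in TR9-MeTA14, and 4.75-fold by its single-spot probe. TNFRSF10B was 2.03-fold higher, and both stand beside 14.2% of all genes. TNFSF12 was 2.11-fold lower in TR15-MeTA5, beside 10.5% of all genes. As signed differences, the log2 change in TR15-MeTA5 minus that in TR9-MeTA14 was 1.65 for FAS, 1.27 for TNFRSF10B and 1.18 for TNFRSF21, whose changes were smaller in size in TR15-MeTA5, and -0.52 for TNFRSF25. With 1 array per condition these differences could not be tested.

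The other receptors of the superfamily held further increases. Of 20 listed genes, 12 could be compared in each line, of which 5 were at least 2-fold higher in TR9-MeTA14 and 4 in TR15-MeTA5, beside 17.0% and 9.92% of all genes, and 0 were at least 2-fold lower, beside 15.1% and 2.22%. Their median log2 change was 0.77 and 0.50, beside -0.06 and -0.16 for all genes. Those higher in both lines were TNFRSF4 (OX40, a T-cell costimulatory receptor), TNFRSF18 (GITR, likewise) and TNFRSF8 (CD30, a lymphoma marker). TNFRSF4 signals were 35.8 and 1419 in TR9-MeTA14 and 30.4 and 533 in TR15-MeTA5, a 31.5-fold and an 11.9-fold increase (limma adjusted p = 0.0317). TNFRSF18 was 25.8-fold and 3.30-fold higher (adjusted p = 0.162), and it is next to TNFRSF4 among protein-coding genes. TNFRSF8 was 8.86-fold and 4.71-fold higher (adjusted p = 0.0482). The myeloid markers CD14 and CD68 were likewise higher in both lines, CD14 by 9.62-fold and 4.77-fold and CD68 by 5.73-fold and 2.50-fold, while the pan-leukocyte gene PTPRC had signals between 97.2 and 145 on the 4 arrays and was not 2-fold changed in either line. The part of other cells in these increases was not tested.

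Ligands of these receptors were mostly dim. FASLG was not well above background on any array, and TNFSF10, which encodes TRAIL, was on 1 array, with signals between 11.8 and 25.4. Of 17 listed ligands, 7 could be compared in both lines. TNFSF9 (the ligand of the costimulatory receptor 4-1BB) was the 1 at least 2-fold higher in both, beside 8.33% of all genes. Its increase was 5.05-fold and 3.11-fold (limma adjusted p = 0.0680). TNFSF15 (TL1A), the ligand of TNFRSF25, is named here after its values were seen. Its signals were 207 in TR9-MeTA14 -Tet, 26.3 in TR9-MeTA14 +Tet, 11.9 in TR15-MeTA5 -Tet and 34.2 in TR15-MeTA5 +Tet. It was 9.88-fold lower with tetracycline in TR9-MeTA14 and higher in TR15-MeTA5 by at least 0.58 on the log2 scale, where the -Tet array was not well above background. Ligand and receptor therefore did not move alike in TR9-MeTA14.

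Genes that act downstream of the receptors had changes centred near those of all genes. Of 20 adaptors, kinases and caspases, 18 could be compared in both lines. Of these, 0 were at least 2-fold higher in both and 0 lower in both, beside 8.33% and 0.837% of all genes. In TR9-MeTA14 alone, 3 of 19 were at least 2-fold higher, beside 17.0%, and in TR15-MeTA5 1 of 19 was lower, beside 2.22%. In limma 0 of 18 were higher and 0 lower, beside 2.52% and 0.00876% of all probes. An unadjusted p below 0.05 was found for 1 of 18, beside 19.3%. Their median log2 change was 0.09 in TR9-MeTA14 and -0.09 in TR15-MeTA5. The adaptor FADD had log2 changes of 0.09 and -0.20, TRADD of 0.35 and -0.09, and the initiator caspase CASP8 of 0.56 and 0.35. Of 13 inhibitors of death receptor signalling compared in TR9-MeTA14, 5 were at least 2-fold lower, beside 15.1% of all genes, and 1 at least 2-fold higher, beside 17.0%. Of 14 compared in TR15-MeTA5, 0 were lower, beside 2.22%, and 1 higher, beside 9.92%. The 1 that was higher in both lines was FAIM2, an inhibitor of FAS-mediated apoptosis best known from neurons, 15.9-fold and 12.0-fold (limma log2 change 3.79, standard error 0.29, adjusted p = 0.0198). CFLAR, which encodes the caspase-8 inhibitor FLIP, was 2.42-fold lower in TR9-MeTA14 and 1.55-fold lower in TR15-MeTA5 (adjusted p = 0.236).

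**Figure D4:**
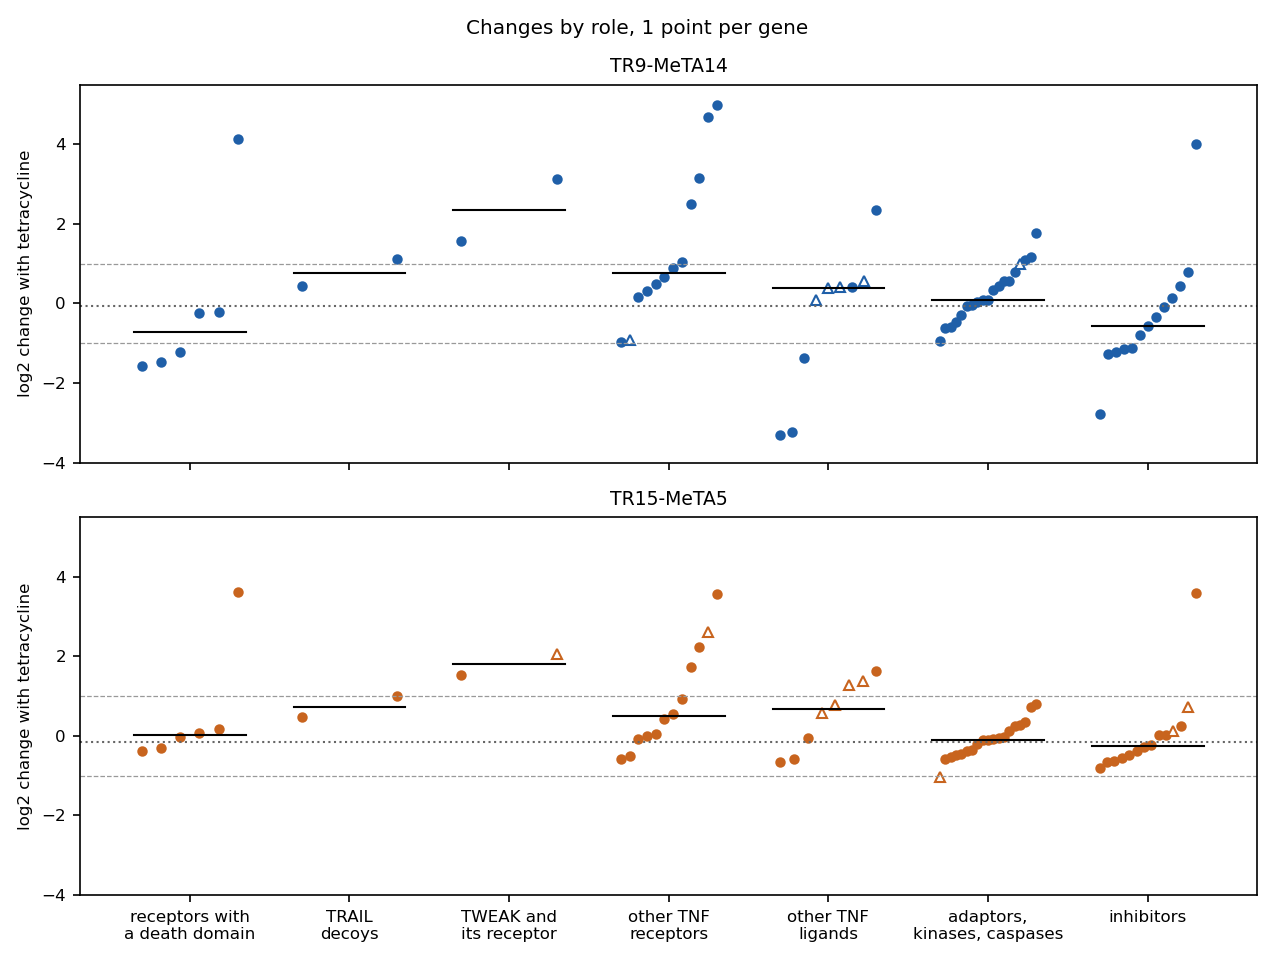
Log2 change with tetracycline of each gene by role, in TR9-MeTA14 (top) and TR15-MeTA5 (bottom). Filled points were measured on both arrays, open triangles are bounds, black lines are medians of the list, the dotted line is the median of all genes and dashed lines mark 2-fold. Single genes stand out among the receptors with a death domain (TNFRSF25) and the inhibitors (FAIM2), while the medians of the adaptors, kinases and caspases lie close to 0 (0.09 and -0.09).

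The nearest genes in the RefSeq order often had no probe, and those with one were measured as follows. PLEKHG5, beside TNFRSF25, had log2 changes of 0.16 and -0.48, and POLR2A, beside TNFSF12, of 0.43 and 0.59. Beside TNFRSF12A, the claudin gene CLDN6 was higher by at least 0.99 and at least 0.48 on the log2 scale, and HCFC1R1 had changes of 0.70 and -0.15. PLEKHG6, beside TNFRSF1A, had changes of 0.25 and -0.35. ACTA2, the smooth muscle actin gene that overlaps FAS, was 2.44-fold lower with tetracycline in TR9-MeTA14 and 4.60-fold higher in TR15-MeTA5. FAS was also lower in TR9-MeTA14. Its log2 change of 0.17 in TR15-MeTA5 was 0.008 with quantile normalization, so its direction there is not settled. Where the probes lie relative to the overlap of ACTA2 and FAS was not examined. The same holds for TNFSF12, which overlaps the readthrough gene TNFSF12-TNFSF13, so the TNFSF12 signal may include that transcript. The genes whose 4 scaled log2 values, centred on each gene's mean, lay closest to those of TNFRSF25 among 12681 genes well above background on all arrays were RFPL1, SCT, TAMALIN, TCF15 and DENND1C, with Euclidean distances between 0.18 and 0.38. Their increases were between 13.7-fold and 23.6-fold in TR9-MeTA14 and between 9.67-fold and 13.9-fold in TR15-MeTA5. TNFRSF12A lay at a distance of 2.34, at rank 558, and the death and decoy receptors lay farther away, at distances between 2.96 and 4.97.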

How the data were processed

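Expression was measured on 4 one-colour Agilent whole human genome arrays, with 1 array per line and tetracycline condition. The authors deposited Feature Extraction output, in which the processed signal is an intensity after background subtraction and detrending, not normalized between arrays. The file headers name version 10.7.3.1, the submitters' processing notes 9.5.1. A deposited series table held the same intensity on all 44495 rows per array.

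Here, between 255 and 344 outlier spots per array were left out, log2 signals of a probe's spots were averaged, and the 75th percentile over 34127 non-control probes was subtracted. A probe was well above background when over 50% of its spots had Feature Extraction's flag, which held for between 20563 and 24217 probes per array. When only the brighter array passed, a fold is a bound against the lowest signal with the flag on the dimmer array, between 13.9 and 19.2, or the probe's own signal if higher. No fold is given when neither array passed. The number of arrays limits the precision, and no spot was saturated. Probes were named through RefSeq accessions (GRCh38.p14), while the array design was annotated on hg19. Coordinates are given only for promoter sequences from RefSeq. The brightest probe stood for a gene.

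For the tetracycline effect, limma 3.58.1 (R 4.3.3) was fitted with a term for the line and a prior variance that follows signal, and p-values were adjusted by Benjamini-Hochberg. The 22819 probes that passed background on 2 or more arrays entered. The fit was tested on simulated data. Python 3.11.15 was used for the rest. The 10 genes and all lists were chosen with earlier results of these data known. Besides the 10 genes, those named are list genes changed at least 2-fold in both lines, nearest neighbours, the 5 genes most like TNFRSF25, and genes singled out for their role or values: TNFSF15, TNFSF10, FASLG, FADD, TRADD, CASP8, CFLAR and the markers, some of which are not reported here. Alternatives were quantile normalization, median scaling, normexp on median spot intensities with an offset of 50 followed by quantile normalization, all spots, plain ratios, other fold limits, other filters, the mean over probes, no block and no trend. Spike-in scaling was added after the data were seen.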

Additional observations from a re-analysis of the deposited data

Results flagged for a closer look

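FAS had a lower level with tetracycline in TR9-MeTA14 and a higher level in TR15-MeTA5, opposite directions under the same treatment. The log2 changes were -1.48 and 0.17, and the signed difference, TR15-MeTA5 minus TR9-MeTA14, was 1.65. TNFRSF10A likewise had log2 changes of -0.22 and 0.08, a difference of 0.31. Neither difference was tested, since there was 1 array per condition. The TNFRSF10A change in TR15-MeTA5 is smaller than the spot SD of 0.087. The FAS change in TR15-MeTA5 was 0.008 with quantile normalization, -0.003 with normexp followed by quantile normalization and 0.60 with spike-in scaling. Whether FAS moved in opposite directions thus depended on the processing.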

How the results depend on the processing

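No paired analysis was possible because each group has 1 array, beyond the pairing of -Tet and +Tet arrays by cell line that the limma test holds as its block. Without that block, or with the filter on every array, limma called 1 probe of the 10 genes higher in place of 2. Beside these stand 543 of 22819 and 162 of 19307 probes higher, respectively. With spike-in scaling or no filter it called 4, beside 1298 of 22819 and 1205 of 34127 probes higher. There was no replicate to leave out. The deposited table equals the scanner files and was not run again. For TNFRSF25, the log2 change of 4.14 in TR9-MeTA14 moved to 3.87 under normexp (always followed by quantile normalization) and to 4.27 under spike-in scaling. In TR15-MeTA5, 3.62 became 3.25 and 4.05, respectively, and 2.53 as the mean over its 2 probes, the dimmer of which has a bound. Its limma adjusted p lay between 0.00139 and 0.0281 under 9 alternatives. With a limit of 3-fold, 2 of the 10 genes were higher and 0 lower in TR9-MeTA14, in place of 4 and 3. Changes of opposite sign in the lines numbered 5 with spike-in scaling and 1 with normexp, in place of 2. The counts of genes higher in TR15-MeTA5 and in both lines lay between 2 and 4, in place of 3. For these fold counts, the shares of all genes under the alternatives were not counted.

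By limma, 576 probes were higher and 2 lower. Restricted to probes above background on every array, 162 were higher and 0 lower, with 1701 and 1927 at an unadjusted p below 0.05. Unfiltered, 1205 and 45 were called, and after spike-in scaling 1298 and 7. Lower probes numbered 8 with quantile normalization, 4 with median scaling and 9 without a trend. TNFRSF10A changed sign in limma with spike-in scaling, from -0.07 to 0.21. Of 126 fold changes of the other 9 genes under the alternatives, 91 moved by less than the spot SD and 35 by more, 18 of these with spike-in scaling. None of the 2-fold changes turned its direction. Causes were not tested.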

Other observations

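Over all genes with 1 promoter window and a change in both lines, the share at least 2-fold higher in both was 8.13% of 615 genes with 0 to 4 CG in the window, 12.1% of 1004 with 5 to 14, 6.44% of 2050 with 15 to 24 and 6.74% of 4422 with 25 or more. TNFRSF25, with 31 CG, falls in the last of these classes and TNFRSF1A, with 4, in the first.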
